A study of Mus musculus with 6 samples.

Results

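The genes described here are 10 genes of the T-cell receptor complex and its partners, Cd3d, Cd3e, Cd3g, Cd247, Zap70, Lck, Trat1, Thy1, Cd4 and Cd8a, chosen by symbol from the 34590 gene symbols counted in each library. All 10 symbols were found and all 10 passed the filter on low counts. Skin biopsies came from 6 C57BL/6 mice, 3 Tnip1-/- (knockout, KO) and 3 Tnip1+/+ (wild type, WT), and all 6 are labelled as given surface imiquimod for 2 days. Imiquimod is a Toll-like receptor 7 agonist that produces a psoriasis-like inflammation on mouse skin, and the Tnip1 protein (ABIN1) works with A20 to hold back NF-kB signalling. The comparison asks which transcripts the loss of Tnip1 changes in treated skin. The labels give neither the age or sex of the mice nor the deleted part of Tnip1, and untreated skin was not analysed here. The library descriptions carry a code with the letters IMQ in the 3 WT libraries and NORM in the 3 KO libraries, although the treatment label is the same in all 6. What the codes stand for is not given in the sources used here, so any difference they might mark, in treatment or in handling, and the genotype cannot be told apart. If NORM marked skin without imiquimod, against its treatment label, each KO minus WT value would also hold a difference in treatment.

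The T-cell receptor binds peptide on MHC through its variable chains and has almost no signalling tail of its own. The CD3 chains and the zeta chain carry that signal: the kinase Lck, brought to the complex by the co-receptors CD4 and CD8, phosphorylates their tails, and the kinase ZAP-70 docks there. Mouse epidermis normally holds a dense resident network of gamma-delta T cells, the dendritic epidermal T cells, which share a single invariant receptor, and the dermis holds alpha-beta T cells and other gamma-delta T cells that make IL-17.

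Gene counts summed to 19529970 to 25864730 in KO libraries and 24701074 to 31005554 in WT libraries. Tnip1 stood at 1.81 ± 0.230 CPM (counts scaled to library size with TMM factors) in KO skin and 26.4 ± 1.55 CPM in WT skin (SD, n = 3 each), as the labels say. Epidermal marker genes were abundant in all libraries, with summed levels of 22456 to 25949 CPM in KO and 8897 to 14539 CPM in WT skin. Muscle and fat genes went the other way, with 3485 to 6283 CPM in KO and 12287 to 22321 CPM in WT skin, and the mean log2 level of these genes (centred over the libraries) was lowest in KO replicate 2 at -2.93, against -0.33 to -0.18 in the other KO libraries and 0.74 to 1.701 in WT libraries. By Xist and Y-linked genes, KO replicates 1 and 2 and WT replicate 1 were male and the other 3 libraries female. WT replicate 2 held some Y-linked reads, with Ddx3y at 1.90 CPM against 0.0370 in WT replicate 3 and 129 in WT replicate 1. The source of these reads was not tested. The genotypes differed widely: 7525 of 16691 tested genes (45.1%) were called by edgeR's quasi-likelihood test at a Benjamini-Hochberg adjusted p under 0.05, with 22.3% higher and 22.7% lower in KO skin.

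The receptor complex did not change as a block. Of the 10 genes, 4 fell in KO skin (Trat1, Thy1, Cd3e and Cd3g), 1 rose (Zap70) and 5 did not pass the test (Cd247, Cd4, Cd3d, Cd8a and Lck). The share called, 5 of 10, was close to the 45.1% of all tested genes. The median log2 fold change (KO minus WT) was -0.50, against -0.04 over all tested genes. KO and WT libraries did not overlap for the 5 called genes, 4 with KO below and 1 with KO above, where 59.8% of all tested genes had groups that did not overlap (30.5% with KO below and 29.2% with KO above). In bulk skin, fewer T cells and less RNA per T cell cannot be told apart.

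**Figure D1:**
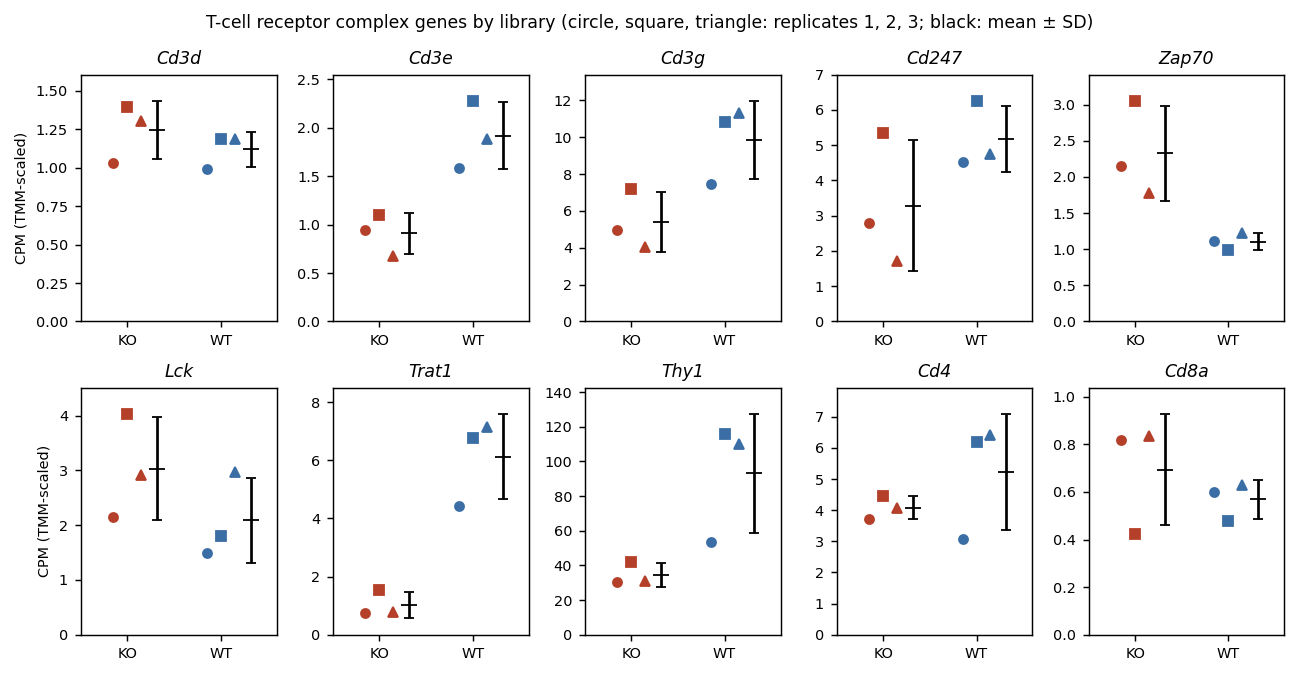
Level of each gene in CPM (TMM-scaled, linear axis from 0) in each KO and WT library, with replicates 1, 2 and 3 as circle, square and triangle and the mean ± SD in black. KO libraries all lie below WT libraries for Cd3e, Cd3g, Trat1 and Thy1 and above them for Zap70, and the groups overlap for the other 5 genes.

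Trat1 showed the largest difference. It encodes TRIM, a transmembrane adaptor that associates with the receptor and the zeta chain. Its counts were 17, 36 and 15 in KO replicates 1, 2 and 3, against 148, 199 and 193 in WT replicates 1, 2 and 3. These correspond to 0.733, 1.52 and 0.783 CPM in KO skin and 4.44, 6.76 and 7.14 CPM in WT skin. Every KO library was thus well under the lowest WT library, and the KO mean was 16.6% of the WT mean. Trat1 fell by 2.58 on the log2 scale (SE 0.36, edgeR adjusted p = 0.00236).

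Thy1, the gene of the CD90 surface glycoprotein of T cells, was by far the most abundant of the 10. It stood at 30.2, 42.1 and 30.9 CPM in KO libraries and at 53.8, 115.6 and 109.8 CPM in WT libraries. KO libraries all lay below WT replicate 1, and WT replicate 1 was far below the other WT libraries. Thy1 fell by 1.43 (log2, SE 0.30, edgeR adjusted p = 0.00916), with a KO mean of 37.0% of the WT mean. Fibroblasts and neurons make Thy1 as well as T cells. Of 12 fibroblast genes, 5 fell and 0 rose, with a median log2 fold change of -0.69 and summed levels of 6587 to 7318 CPM in KO and 7257 to 17353 CPM in WT skin. The fibroblast count was 3 lower without KO replicate 2 or 3, and 5 lower with 2 higher without WT replicate 1. Of 11 tested nerve and Schwann cell genes, 6 fell and 1 rose, with a median of -0.91 and summed levels of 96.4 to 109 CPM in KO and 141 to 175 CPM in WT skin. Over all tested genes, 22.7% fell and 22.3% rose. The part of fibroblasts, nerve and Schwann cells in the Thy1 difference was not tested.

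Among the CD3 chains, epsilon and gamma were lower in KO skin and delta was not. Cd3e, whose chain pairs with both delta and gamma, stood at 0.948, 1.10 and 0.679 CPM in KO libraries (61 counts in all) and at 1.59, 2.28 and 1.89 CPM in WT libraries (171 counts in all). Cd3g, the gene of the gamma chain, stood at 4.96, 7.20 and 4.02 CPM in KO libraries and at 7.44, 10.8 and 11.3 CPM in WT libraries. In both genes the highest KO library was replicate 2 and the lowest WT library was replicate 1; for Cd3g these 2 libraries were close to each other. Cd3e fell by 1.06 (log2, SE 0.29, edgeR adjusted p = 0.0219) and Cd3g by 0.87 (log2, SE 0.27, edgeR adjusted p = 0.0356), to 47.4% and 54.7% of the WT means. Both calls were weak: each was lost without KO replicate 1 or 3 or WT replicate 2 or 3, at log2 values of -1.08, -0.89, -0.92 and -1.06 for Cd3e (edgeR adjusted p = 0.0602, 0.0731, 0.0566 and 0.0531) and of -0.80, -0.69, -0.79 and -0.74 for Cd3g (edgeR adjusted p = 0.101, 0.101, 0.0914 and 0.0984).

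Cd3d, the gene of the delta chain, had 24, 33 and 25 counts in KO libraries and 33, 35 and 32 counts in WT libraries, or 1.03, 1.40 and 1.31 CPM against 0.990, 1.19 and 1.18 CPM. The groups overlapped, and the log2 fold change was 0.15 with a 95% interval of -0.44 to 0.74 (edgeR adjusted p = 0.639). Within the counts of the 4 signalling chains, Cd3d made up 10.6%, 9.30% and 16.9% in KO libraries and 6.80%, 5.79% and 6.20% in WT libraries, so its share was higher in every KO library. Cd3d and Cd3g are neighbours on chromosome 9 (GRCm38, GENCODE M21), transcribed away from each other from starts 1355 bases apart.

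Cd247 encodes the zeta chain, which holds most of the signalling motifs of the complex. It stood at 2.80, 5.34 and 1.72 CPM in KO libraries and at 4.53, 6.25 and 4.74 CPM in WT libraries, with KO replicate 2 inside the WT range and the other KO libraries below it. The log2 fold change was -0.65 with a 95% interval of -1.58 to 0.29 (edgeR adjusted p = 0.217). Without KO replicate 2, Cd247 passed the test at -1.16 (edgeR adjusted p = 0.0356). Exons of Cd247 share 3007 bases with Pou2f1 on the other strand in GENCODE M21, and the strand option of the counter is not given in the sources used here, so reads of these genes could not be told apart there. Cd3e shares 135 exon bases with the antisense gene Gm48719, with the same limit. On the same strand, Cd247 shares 206 exon bases with Gm16565 and Lck 25 with Mir8119, which no strand option separates.

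Zap70 was the only one of the 10 genes that rose. It encodes the kinase that binds the phosphorylated CD3 and zeta tails. Its counts were 50, 72 and 34 in KO libraries and 37, 29 and 33 in WT libraries, or 2.15, 3.05 and 1.78 CPM in KO skin and 1.11, 0.985 and 1.22 CPM in WT skin. All KO libraries were above all WT libraries, and the KO mean was 2.10 times the WT mean. Zap70 rose by 1.08 (log2, SE 0.28, edgeR adjusted p = 0.0197). This call was lost without KO replicate 2 (0.85, edgeR adjusted p = 0.0718) and without WT replicate 2 (1.00, edgeR adjusted p = 0.0535), and with the replicate number as a block (1.05, edgeR adjusted p = 0.0536). NK cells hold Zap70 too. Of 12 tested NK and cytotoxic genes 0 rose and 5 fell, against 22.3% higher and 22.7% lower over all tested genes. Their summed levels were 16.0 to 19.0 CPM in KO and 27.2 to 37.0 CPM in WT skin. The part of NK cells in the Zap70 difference was not tested.

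Lck, the kinase upstream of ZAP-70, had values in the same direction as Zap70 but did not pass. It stood at 2.15, 4.02 and 2.92 CPM in KO libraries and at 1.50, 1.80 and 2.96 CPM in WT libraries, so WT replicate 3 lay inside the KO range. The log2 fold change was 0.54 with a 95% interval of -0.29 to 1.37 (edgeR adjusted p = 0.238).

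The co-receptor genes did not separate the genotypes. Cd4 stood at 3.71, 4.45 and 4.07 CPM in KO libraries and at 3.09, 6.18 and 6.40 CPM in WT libraries, where WT replicate 1 was below every KO library and the other WT libraries above. Its log2 fold change was -0.36 with a 95% interval of -1.06 to 0.35 (edgeR adjusted p = 0.358). Some mouse macrophages and dendritic cells carry Cd4 as well; of 12 macrophage genes 4 rose and 0 fell, with a median log2 fold change of -0.19 and summed levels of 1311 to 1956 CPM in KO and 1183 to 1772 CPM in WT skin, and of 15 tested Langerhans and dendritic cell genes 0 rose and 10 fell, with summed levels of 466 to 903 CPM in KO and 1149 to 1352 CPM in WT skin. With library totals alone the macrophage count was 2 higher and 2 lower, and 2 rose without KO replicate 2 or 3 or WT replicate 1 or 3. Without KO replicate 2 or WT replicate 2, 5 genes of the Langerhans and dendritic cell list fell, and without WT replicate 2, 1 rose. Over all tested genes, 22.3% rose and 22.7% fell. The part of macrophages and dendritic cells in the Cd4 level was not tested.

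Cd8a was the scarcest of the 10, with 19, 10 and 16 counts in KO libraries and 20, 14 and 17 counts in WT libraries. Its log2 fold change was 0.27 with a 95% interval of -0.55 to 1.10 (edgeR adjusted p = 0.542). The counts were low, and a difference within that interval could not be told from no difference. Cd4 made up 81.9%, 91.3% and 83.0% of Cd4 plus Cd8a counts in KO libraries and 83.7%, 92.9% and 91.1% in WT libraries. The groups overlapped, and the difference of means was -3.82 percentage points (two-sided exact permutation test, p = 0.3, with 0.1 the smallest p that 3 against 3 libraries allow).

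**Figure D2:**
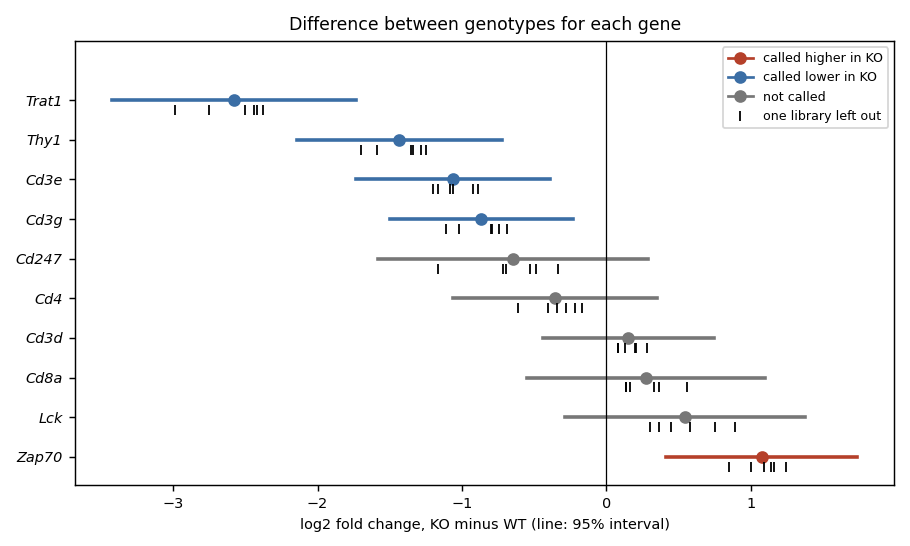
Log2 fold change (KO minus WT) of each gene with its 95% interval from the edgeR fit, coloured by call, and the values with 1 library left out at a time as black ticks. Trat1 lies farthest below 0 at -2.58 and Zap70 farthest above it at 1.08, and no tick of any gene lies on the other side of 0 from its estimate.

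Library scaling did not enter the next measure. The summed counts of Cd3d, Cd3e, Cd3g and Cd247 were set against Ptprc, the gene of CD45 on all leukocytes. The log2 ratio was -4.41, -3.52 and -4.49 in KO libraries and -3.13, -3.28 and -2.73 in WT libraries. Every KO library was below every WT library, and the mean difference was -1.09 (two-sided exact permutation test, p = 0.1, the smallest possible here). Ptprc itself stood at 207, 173 and 173 CPM in KO libraries and at 128, 199 and 127 CPM in WT libraries, with a log2 fold change of 0.29 (edgeR adjusted p = 0.271). Of 12 pan-leukocyte genes, 3 rose and 0 fell in KO skin, near the 22.3% higher over all tested genes. Only 1 rose without KO replicate 1 or 2 or WT replicate 1 or 3, and library totals alone gave 2 higher and 1 lower.

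Within each genotype the same library was often the extreme for these genes. How often this held over all tested genes was not determined. KO replicate 2 was the highest of the KO libraries for 9 of the 10 genes, and WT replicate 1 the lowest of the WT libraries for 8 of the 10. KO replicate 2 was also the library with the lowest muscle and fat level, and WT replicate 1 the only male WT library. With sex as a covariate, Cd3g (-0.86, edgeR adjusted p = 0.0855) and Zap70 (0.96, edgeR adjusted p = 0.0501) lost their calls and Trat1, Thy1 and Cd3e kept theirs. With the muscle and fat level as a covariate, Trat1 alone of the 10 was called (-3.30, edgeR adjusted p = 0.0227), and Cd3e, Cd3g, Thy1 and Zap70 stood at -1.25, -1.33, -1.64 and 0.52. Of the genes not called, Lck and Cd3d stood at -0.05 and -0.02, with the opposite sign to the fit without the covariate, and Cd247 and Cd8a at -1.59 and 0.86, farther from 0 than without it. That level separated the genotypes fully, so its effect and that of genotype cannot be told apart.

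Levels were compared between genes as CPM per kilobase of exon, with the union of exons of each gene in GENCODE M21, which may differ from the gene models the authors counted. In KO skin the order was Thy1 (11.5), Cd3g (1.65), Lck (1.04), Cd4 (1.01), Zap70 (0.778), Cd3d (0.686), Cd247 (0.617), Cd3e (0.223), Trat1 (0.217) and Cd8a (0.190 CPM per kilobase). In WT skin it was Thy1 (31.1), Cd3g (3.02), Trat1 (1.31), Cd4 (1.30), Cd247 (0.971), Lck (0.713), Cd3d (0.618), Cd3e (0.470), Zap70 (0.370) and Cd8a (0.156 CPM per kilobase). Trat1 thus came just above Cd8a in KO skin and just below Cd3g in WT skin, and Zap70 above Cd3d in KO skin and below Cd3e in WT skin. Ranges over the 3 libraries overlapped between all neighbours in these orders, except Thy1 with Cd3g in both genotypes, Cd247 with Cd3e in KO skin, and Cd3g with Trat1 and Zap70 with Cd8a in WT skin.

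The start regions of Trat1 and Zap70, which had the largest decrease and the only increase, and of the neighbours Cd3g and Cd3d, of which only Cd3g was called, are shown. The difference between Cd3g and Cd3d was not tested, and their 95% intervals overlap. They are RefSeq sequences of GRCm38.p6 from 250 bases before to 50 bases after the start, written 5′ to 3′ on the gene's strand: Trat1 at chr16:48772013-48772312 (minus strand), Zap70 at chr1:36761548-36761847 (plus strand, the first of 3 starts), Cd3g at chr9:44980382-44980681 (minus strand) and Cd3d at chr9:44981536-44981835 (plus strand).
Trat1: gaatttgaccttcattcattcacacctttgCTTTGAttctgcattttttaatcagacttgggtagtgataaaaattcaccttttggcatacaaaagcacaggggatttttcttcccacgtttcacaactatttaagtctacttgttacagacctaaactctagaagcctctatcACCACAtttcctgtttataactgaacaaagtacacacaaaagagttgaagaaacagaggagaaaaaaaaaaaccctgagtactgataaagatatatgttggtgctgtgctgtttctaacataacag
Zap70: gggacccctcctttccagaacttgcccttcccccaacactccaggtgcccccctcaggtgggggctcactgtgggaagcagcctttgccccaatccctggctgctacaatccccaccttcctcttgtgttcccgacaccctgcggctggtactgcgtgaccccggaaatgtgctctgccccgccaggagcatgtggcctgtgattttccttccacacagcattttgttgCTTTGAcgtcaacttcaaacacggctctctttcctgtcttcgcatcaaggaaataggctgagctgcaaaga
Cd3g: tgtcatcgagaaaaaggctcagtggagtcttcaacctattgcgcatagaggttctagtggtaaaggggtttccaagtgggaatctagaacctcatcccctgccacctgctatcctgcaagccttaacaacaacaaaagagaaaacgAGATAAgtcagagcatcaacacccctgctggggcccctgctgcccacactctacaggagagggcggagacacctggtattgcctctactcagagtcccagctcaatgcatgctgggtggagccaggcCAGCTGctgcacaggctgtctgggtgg
Cd3d: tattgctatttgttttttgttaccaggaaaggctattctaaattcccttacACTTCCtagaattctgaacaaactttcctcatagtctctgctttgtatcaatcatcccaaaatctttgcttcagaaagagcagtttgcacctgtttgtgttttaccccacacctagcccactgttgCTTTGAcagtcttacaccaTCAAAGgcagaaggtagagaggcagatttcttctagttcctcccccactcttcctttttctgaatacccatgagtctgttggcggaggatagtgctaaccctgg
Capitals mark matches, on either strand, to 6 motifs: the ETS core GGAAGT, the RUNX motif TGTGGT, the TCF and LEF motif CTTTGA, the E-box CAGCTG, the GATA motif AGATAA and the interferon-stimulated response element. No pair of matches overlapped. Trat1 has a TCF and LEF match and a RUNX match, Zap70 a TCF and LEF match, Cd3g a GATA match and an E-box, and Cd3d an ETS match and a pair of TCF and LEF matches. Of the 11 start regions listed for 8 of the 10 genes (none for Cd4 and Thy1), 6 held the ETS core, 4 the TCF and LEF motif, 3 the RUNX motif, 2 the E-box, 1 the GATA motif and 0 the interferon element. Over all 32851 such regions the shares were 23.8%, 16.0%, 16.8%, 16.3%, 11.2% and 3.44% in that order. The matches are letters in these windows and describe no binding.

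The receptor's own gamma chain rows gave unlike values. Tcrg-V5, the gamma variable segment used by dendritic epidermal T cells, had 3, 2 and 0 counts in KO libraries and 28, 41 and 39 counts in WT libraries. The level was 0.129, 0.0847 and 0 CPM in KO skin and 0.840, 1.39 and 1.44 CPM in WT skin, so KO libraries were at or under the level of 3 counts (0.127 to 0.157 CPM) and WT libraries well above it. Tcrg-V5 fell by 3.94 on the log2 scale (SE 0.60, edgeR adjusted p = 0.00318), a size that rests on 5 counts in KO skin and stood at -4.58 without KO replicate 1. Tcrg-V5 and Xcl1 passed the filter on low counts through the WT libraries alone, so both had to be lower in KO skin to be tested at such counts. Xcl1, the gene of lymphotactin, which these cells and NK cells make, had 7 counts over KO libraries and 130 over WT libraries and fell by 3.75 (log2, SE 0.49, edgeR adjusted p = 0.00188). The gamma constant row Tcrg-C had 29 counts over KO libraries and 35 over WT libraries (0.15, edgeR adjusted p = 0.786), and the gamma segment Trgv2 had 26 counts over KO libraries and 51 over WT libraries (-0.53, edgeR adjusted p = 0.502). The delta segment Trdv4, looked up after its values were seen, had 42, 76 and 27 counts in KO libraries and 92, 123 and 95 counts in WT libraries. Its groups overlapped in CPM and it did not pass (-0.69, edgeR adjusted p = 0.142), except without KO replicate 2 (-1.09, edgeR adjusted p = 0.0417).

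The beta constant genes stood higher in every KO library than in every WT library. Trbc2 stood at 16.0, 21.9 and 21.1 CPM in KO libraries and at 11.8, 12.5 and 15.6 CPM in WT libraries, without overlap, and rose by 0.56 (log2, SE 0.18, edgeR adjusted p = 0.0359). Trbc1, whose sequence is nearly identical so that reads may be split between them, stood at 4.05, 8.22 and 3.81 CPM in KO libraries and at 3.09, 3.06 and 3.18 CPM in WT libraries (0.79, edgeR adjusted p = 0.0842). The Trbc2 call was lost without KO replicate 2 (0.50) or 3 (0.52), without WT replicate 1 (0.50) or 2 (0.52), with library totals alone (0.41) and with upper-quartile factors (0.48). The alpha constant gene Trac had only 53 counts over KO libraries and 73 over WT libraries, and its log2 fold change was -0.06 (edgeR adjusted p = 0.924).

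Genes of the gamma-delta T-cell list were called in both directions. Of the 12 tested genes in the dendritic epidermal and gamma-delta T-cell list, 4 rose and 2 fell, with a median log2 fold change of 0.59. Over all tested genes, 22.3% rose and 22.7% fell. Those that rose were Cd163l1, Blk, Trbc2 and the NK and gamma-delta receptor gene Cd244. Those that fell, Tcrg-V5 and Xcl1, passed the filter on low counts through the WT libraries alone. With the stricter filter, which removed both, 0 fell. The list holds alpha-beta receptor genes too. Cd163l1, which encodes a scavenger receptor of IL-17-producing gamma-delta T cells, stood at 12.1, 14.6 and 6.69 CPM in KO libraries and at 2.46, 2.79 and 2.89 CPM in WT libraries, and rose by 2.04 (log2, SE 0.30, edgeR adjusted p = 0.00285). Blk, a Src-family kinase gene of B cells and of IL-17-producing gamma-delta T cells, rose by 1.60 (SE 0.29). B-cell genes were scarce, with Cd79a at 5 counts over KO libraries and 3 over WT libraries, and of 5 tested B-cell genes only Cd22 rose (1.35), a call lost without KO replicate 2 or 3 or WT replicate 1 or 3 (1.32, 1.24, 1.23 and 1.17). Tcrg-V6, the gamma segment of dermal and mucosal IL-17-producing cells, had 14, 23 and 2 counts in KO libraries and 10, 16 and 7 counts in WT libraries and did not pass (0.64, edgeR adjusted p = 0.454). Sox13, a gene of the T-cell transcription factor list, fell by 1.11 (log2, SE 0.29, edgeR adjusted p = 0.0198). In the dendritic epidermal and gamma-delta T-cell list, Il23r (0.90, edgeR adjusted p = 0.15) and 5830411N06Rik (0.25, edgeR adjusted p = 0.762) did not pass. The number of this list that rose was 2 without KO replicate 2, WT replicate 1 or WT replicate 2 and 2 with library totals alone.

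**Figure D3:**
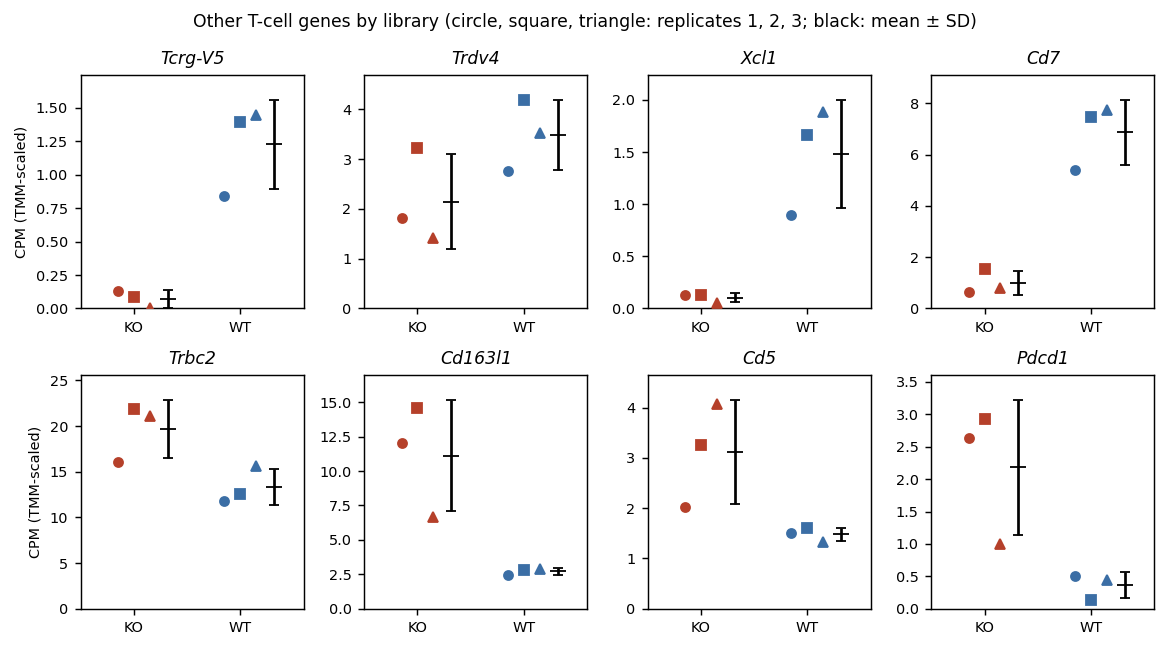
Levels in CPM (TMM-scaled, linear axis from 0) of 8 other T-cell genes in each KO and WT library, drawn as in the plot of the 10 genes. Tcrg-V5, Xcl1 and Cd7 are lower in every KO library, Trbc2, Cd163l1, Cd5 and Pdcd1 are higher in every KO library, and Trdv4 overlaps. Tcrg-V5 and Xcl1 passed the filter on low counts through the WT libraries alone.

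T-cell surface and costimulatory receptors were called in both directions, at shares no higher than those over all tested genes (22.3% higher and 22.7% lower). Of 18 tested, 4 rose and 3 fell, with a median log2 fold change of 0.52. Cd7, the gene of an early T-cell and NK-cell surface protein, stood at 0.646, 1.52 and 0.783 CPM in KO libraries and at 5.40, 7.48 and 7.74 CPM in WT libraries. Cd7 fell by 2.79 (log2, SE 0.36, edgeR adjusted p = 0.00181), which is close in size to Trat1. Cd96, a nectin-binding receptor gene of T and NK cells, had 49 counts over KO libraries and 240 over WT libraries and fell by 1.87 (SE 0.41). Pdcd1, the gene of the inhibitory receptor PD-1, stood at 2.63, 2.92 and 0.992 CPM in KO libraries and at 0.510, 0.136 and 0.444 CPM in WT libraries, and rose by 2.57 (log2, SE 0.57, edgeR adjusted p = 0.0109). Cd5 (1.07), Icos (1.10) and Cd28 (0.94) rose as well, and Cd226 fell by 1.26. The number that rose was 1 or 2 without any single library and 1 with library totals alone: the call of Cd28 was lost without each of the 6 libraries, that of Cd5 without KO replicate 2 or 3 or any WT library (1.06, 0.85, 1.10, 1.13 and 1.02), and that of Icos without KO replicate 1 or 2 or any WT library (1.22, 0.62, 1.05, 1.05 and 1.22).

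The adaptors and enzymes that carry the receptor signal onward mostly did not pass the test. Of 28 tested genes, 3 rose, 4 fell and 21 did not pass, or 25% called, against 45.1% called over all tested genes. The median log2 fold change was 0.09. Fyn, the gene of the other Src-family kinase of T cells, fell by 0.86 (SE 0.12), at 24.1 to 28.0 CPM in KO and 42.6 to 52.1 CPM in WT libraries. Itpkb, an inositol trisphosphate kinase gene, fell by 0.73 (SE 0.16). Bcl10, the gene of a scaffold between the receptor and NF-kB, rose by 1.05 (SE 0.21), at 47.8 to 65.2 CPM in KO and 20.9 to 35.2 CPM in WT libraries. Fyn, Itpkb and Bcl10 are active in many skin cell types. The T-cell adaptor gene Lat stood at 2.78 ± 0.761 CPM in KO and 2.25 ± 0.521 CPM in WT skin (SD, n = 3 each) and did not pass (0.31, edgeR adjusted p = 0.414). With 1 library left out, 1 or 2 of the list rose and 2 fell, except 5 without KO replicate 2.

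NK and cytotoxic lymphocyte genes, several of which dendritic epidermal T cells also carry, were lower in part. Of 12 tested, 0 rose and 5 fell, against 22.3% higher and 22.7% lower over all tested genes. The median log2 fold change was -0.89. Klrk1, the gene of the activating receptor NKG2D, stood at 3.29 to 4.19 CPM in KO and 7.23 to 9.25 CPM in WT libraries and fell by 1.13 (SE 0.19). The perforin gene Prf1 fell by 1.50 (SE 0.28) and the granule gene Nkg7 by 1.69 (SE 0.34). Ncr1, a defining NK-cell receptor gene, had 35 counts over KO libraries and 63 over WT libraries and did not pass (-0.44, edgeR adjusted p = 0.44).

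**Figure D4:**
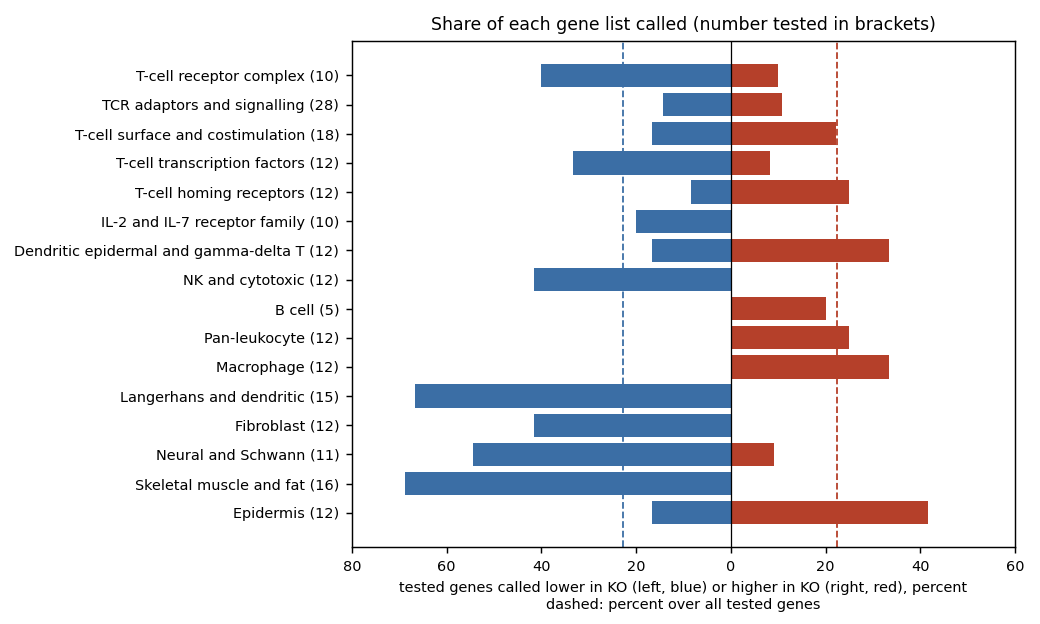
Percent of the tested genes of each list called lower (left) or higher (right) in KO skin, with dashed lines at the percent over all tested genes (22.7% lower, 22.3% higher). The receptor complex has 4 of 10 genes lower and 1 higher, the NK and cytotoxic list 5 of 12 lower and 0 higher, and the adaptor list stays under both lines.

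The genes whose pattern over the 6 libraries was most like the mean of Cd3d, Cd3e and Cd3g were Zfp939, Col14a1, Kmo, Il7r, Creg1 and Zfp869, among the 15072 genes averaging 1 CPM or more. Likeness was the root mean square difference of centred log2 CPM, which was 0.0530, 0.0722, 0.0810, 0.0856, 0.0874 and 0.1002 for these genes. Il7r, the interleukin-7 receptor gene of lymphocytes, stood at 8.10, 11.8 and 6.79 CPM in KO libraries and at 10.8, 15.5 and 14.5 CPM in WT libraries. That mean does not stand closely for its own genes, which lay at 0.183 (Cd3g), 0.242 (Cd3e) and 0.395 (Cd3d) from it. Of the other genes of the complex, Cd4 (0.283), Cd247 (0.338) and Thy1 (0.453) were nearest to that mean, and Zap70 (0.812) and Trat1 (0.999) farthest from it.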

How the data were processed

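The authors deposited 1 file of gene counts per library, made from stranded, ribosomal RNA-depleted total RNA per the labels' protocols. The submitters' processing notes name CASAVA 1.7, STAR, BWA, HTSeq, limma, R 3.2.3 and build mm9; settings, strand option and annotation are not given in the sources used here. The 5 summary lines (26.7% to 30.3% of each file) were left out.

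Counts were fitted in R 4.3.3 with edgeR 4.0.16 over all 6 libraries: filterByExpr, TMM factors (0.898 to 1.09), a quasi-likelihood test of genotype and Benjamini-Hochberg adjustment over 16691 genes. Log2 fold changes are KO minus WT. The procedure was tested on simulated counts in which few genes differed. Its behaviour with as many differing genes as here was not tested. Replicates of a genotype were no duplicates (chi-square over its degrees of freedom, 33.1 to 134), and the design text names 3 mice per genotype. A level of 3 counts is 0.0900 to 0.157 CPM. Same-numbered libraries deviated from their group means with correlations of 0.01, -0.21 and 0.19, so the numbers were not taken as pairs.

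Genes and lists were chosen with earlier results of these data known. All 10 genes are named, with up to 3 genes of each list by smallest p and the 6 most like the CD3 chains. Tnip1 was named as a check of the labels. Blk, Trbc1, Trbc2, Trac, Tcrg-V6, Tcrg-C, Trgv2, Trdv4, S1pr1, Ets1, Cd5, Icos, Cd28, Cd226, Lat, Ptprc, Ncr1, Cd79a, Cd22, Cd244, Ccr4, Ccr8, Itgae, Bcl11b, Tcf7, Foxp3, Sox13, Il23r and 5830411N06Rik were chosen after their values were seen. Alternatives used DESeq2 1.42.0, limma 3.58.1 (voom), library totals, upper-quartile factors, robust dispersion, other filters, covariates, the replicate block and fits with 1 library left out. Symbols Trdc, Tcrg-C1, Tcrg-C2 and Tcrg-C4 did not match a row. Values of 3 further list genes are not reported here.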

Additional observations from a re-analysis of the deposited data

How the results depend on the processing

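Of the 10 genes, 1 was called higher and 4 lower with DESeq2, limma voom, library totals alone, upper-quartile factors, robust dispersion, no filter and the stricter filter, which left 9 of them, without Cd8a. With the replicate block 0 were higher, with the sex covariate 0, and with the muscle and fat covariate 0 were higher and 1 lower. Leaving out 1 library gave 0 to 1 higher and 2 to 5 lower. Over all tested genes the muscle and fat covariate left 1009 higher and 854 lower, against 3730 and 3795; the cause was not tested. The replicate block gave 3323 and 3142, and the numbers do not pair the samples. Library totals alone gave 2490 and 4809 and moved the median log2 fold change by -0.15. The Cd4 share difference ranged from -6.77 to -2.0 percentage points and the log2 ratio of CD3 chains to Ptprc from -1.40 to -0.92 with 1 library left out. The replicate block cannot change these differences (-3.82 and -1.09) and gave p = 0.25 for each in an exact sign-flip permutation. That is the smallest p this test can give here. Trat1 was called under every alternative run (-3.30 to -2.37) and Thy1 under all but the muscle and fat covariate (-1.70 to -1.21 over all alternatives). Counts of 10 to 20 per library limit Cd8a, and the stricter filter also removed Tcrg-V5 and Xcl1.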

Other observations

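Of 12 tested homing receptors and adhesion molecules of T-cell traffic, 3 rose and 1 fell, with a median log2 fold change of -0.23, against 22.3% higher and 22.7% lower over all tested genes. The gene that fell was S1pr1, the sphingosine phosphate receptor gene (by 0.70), a call lost with limma voom (-0.65), the replicate block (-0.66) and the sex (-0.62) and muscle and fat (-0.47) covariates. It was also lost without KO replicate 1, 2 or 3 or WT replicate 2 or 3 (-0.78, -0.67, -0.60, -0.41 and -0.76). Itgal, the gene of the LFA-1 alpha chain, stood at 11.9 to 16.0 CPM in KO and 5.07 to 6.22 CPM in WT libraries and rose by 1.33 (SE 0.17, edgeR adjusted p = 0.00194). Cxcr6, a chemokine receptor gene of tissue-resident T cells, rose by 1.18 (SE 0.23). Itgal is also a gene of neutrophils, whose part was not tested. The skin-homing receptor genes Ccr4 (-1.25, edgeR adjusted p = 0.0869) and Ccr8 (-0.70, edgeR adjusted p = 0.163) and the integrin gene Itgae (-0.30, edgeR adjusted p = 0.348), which binds E-cadherin of keratinocytes, did not pass.

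Of 12 tested transcription factor genes of T-cell identity, 4 fell and 1 rose, against 22.7% and 22.3% over all tested genes. The gene that rose was Ets1 (0.36), a call lost with library totals alone (0.20), upper-quartile factors (0.27), no filter (0.36), the replicate block (0.36), both covariates (0.33 and 0.37), and without KO replicate 1 or 2 or WT replicate 1 or 3 (0.33, 0.36, 0.36 and 0.32). Gata3 fell by 1.39 (SE 0.21) and Lef1 by 2.10 (SE 0.49, and 1.42 without WT replicate 3, which had 6.63 CPM against 2.04 and 2.75 CPM in the other WT libraries). Gata3 is also made by keratinocytes and hair follicles, and Lef1 by hair follicles. Bcl11b (0.01), Tcf7 (-0.37) and Foxp3 (-0.07), factors of T-cell commitment and of regulatory T cells, did not pass.

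Of the epithelial cytokine genes that maintain lymphocytes in skin, Il15 fell by 0.75 (SE 0.16, edgeR adjusted p = 0.0104), at 4.81 to 5.55 CPM in KO and 7.70 to 9.60 CPM in WT libraries, and Il7 by 0.92 (SE 0.29, edgeR adjusted p = 0.0383). The Il7 call was lost without KO replicate 1 or 3 or any WT library (-0.68, -0.87, -0.93, -0.84 and -0.97). Of the 10 genes in the IL-2 and IL-7 receptor family list, 0 rose and 2 fell, near the 22.7% lower over all tested genes. Library totals alone gave 5 lower, the muscle and fat covariate 0, and leaving out 1 library gave 1 lower, except 3 without KO replicate 2, with 1 higher without WT replicate 2. At an unadjusted p under 0.05, 0 were higher and 4 lower. Stat5b stood at -0.30 (edgeR adjusted p = 0.0609).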
